A study of Homo sapiens with 38 samples.

Results

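The 10 genes described here encode histone lysine demethylases of the Jumonji C (JmjC) class: KDM6B and KDM6A, KDM5A, KDM5B and KDM5C, KDM4A, KDM4B and KDM4C, and KDM3A and KDM3B. They were taken by name, not by a threshold on their values, from the 49070 gene symbols that all count files share. All 10 passed the filter on low counts in every experiment. The question was whether transcripts of the other demethylases changed where KDM6B had been targeted by siRNA or the enzymes had been blocked by an inhibitor.

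JmjC demethylases are dioxygenases that need iron, oxygen and 2-oxoglutarate to remove methyl groups from histone tails. KDM6A and KDM6B act on lysine 27 of histone H3, KDM5 enzymes on lysine 4, KDM4 enzymes on lysines 9 and 36, and KDM3 enzymes on lysine 9. Several of their genes, KDM3A and KDM4B in particular, are known targets of hypoxia-inducible factor (HIF).

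Total RNA of human neuroblastoma cell lines was sequenced in 3 experiments. BE2C cells, a MYCN-amplified line, were transfected for 72 h with a control siRNA (siCtrl, 2 libraries) or with the KDM6B siRNAs N1, N2 and N33 (1 library each, taken as 1 group labelled siKDM6B). BE2C cells were also exposed to GSK-J4 at 2.5 µM for 0 h, 24 h and 48 h (2 libraries each). GSK-J4 is a cell-permeable ester that cells convert to GSK-J1, an inhibitor of JmjC demethylases with KDM6A and KDM6B as its main targets. No vehicle libraries at 24 h or 48 h were analysed here, so exposure to GSK-J4 and time in culture cannot be told apart. CHLA15 and CHLA20 cells received palbociclib, an inhibitor of the cell cycle kinases CDK4 and CDK6, at 0.3 µM, and NB1643 and NB1691 cells at 3 µM, each for 72 h beside control cells of the same line (2 libraries per line and arm). Dose and line therefore change together across these 4 lines. The study describes 2 of its 4 palbociclib lines as MYCN-amplified and 2 as not. Which lines these are is not given here, so MYCN status cannot be told apart from line. Each line is a single culture model, and no engineered allele is named in the labels. It is not stated whether replicates were separate cultures, so p-values measure only the spread between these libraries, which may be technical. In the siRNA experiment that spread also holds the differences between N1, N2 and N33. The common coefficient of variation within groups, beyond counting error, was 0.35 there, 0.0219 with GSK-J4 and 0.0523 with palbociclib.

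Libraries held 36186567 to 93011010 counts on genes. Counts were scaled to CPM (counts relative to a fixed library size) with TMM factors within each experiment, differences were tested with edgeR's quasi-likelihood F test, and p-values were adjusted by the Benjamini-Hochberg method over all genes tested, with a threshold of 0.05. Errors of levels are SD and those of log2 fold changes are SE. The 5 adrenergic neuroblastoma markers reported, PHOX2A, HAND2, GATA3, ISL1 and TBX2, summed to 225 to 1841 CPM per library. Of the markers of other cells, CD3E, CDH5 and PTPRC stayed at or below 0.544 CPM, EPCAM at or below 3.1 CPM and PECAM1, listed in the palbociclib files alone, at or below 3.84 CPM.

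Start regions are shown for KDM3A, KDM6B and KDM4B, the members with the largest rises at 48 h with GSK-J4. Those of KDM6A, the paralog of KDM6B, and of KDM5C, which stayed level, are added. The letters of a HIF site are marked because several of these genes are known to respond to HIF. Each line gives the 250 bases before a transcription start, 5′ to 3′ on the gene's strand, from RefSeq on build GRCh38.p14; capitals mark ACGTG or GCGTG on either strand, the core letters of a HIF site, also within the E-box CACGTG. Of the 2 starts listed for KDM3A and for KDM6B the first is given.
KDM3A (chr2:86441121-86441370, plus strand): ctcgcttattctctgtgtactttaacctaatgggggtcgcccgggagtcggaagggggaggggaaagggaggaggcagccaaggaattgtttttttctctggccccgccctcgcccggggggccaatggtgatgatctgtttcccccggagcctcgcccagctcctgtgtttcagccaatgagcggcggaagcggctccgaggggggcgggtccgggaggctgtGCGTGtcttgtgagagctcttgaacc
KDM4B (chr19:4968863-4969112, plus strand): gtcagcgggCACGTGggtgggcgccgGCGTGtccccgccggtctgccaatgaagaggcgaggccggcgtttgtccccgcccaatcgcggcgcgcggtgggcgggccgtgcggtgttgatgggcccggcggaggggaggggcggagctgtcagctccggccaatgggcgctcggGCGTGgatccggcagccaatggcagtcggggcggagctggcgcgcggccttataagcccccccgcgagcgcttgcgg
KDM6B (chr17:7833967-7834216, plus strand): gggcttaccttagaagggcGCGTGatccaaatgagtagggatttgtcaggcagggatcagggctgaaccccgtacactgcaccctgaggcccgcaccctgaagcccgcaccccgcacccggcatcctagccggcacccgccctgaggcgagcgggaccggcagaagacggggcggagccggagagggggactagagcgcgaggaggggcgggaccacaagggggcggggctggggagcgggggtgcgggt
KDM6A (chrX:44872938-44873187, plus strand): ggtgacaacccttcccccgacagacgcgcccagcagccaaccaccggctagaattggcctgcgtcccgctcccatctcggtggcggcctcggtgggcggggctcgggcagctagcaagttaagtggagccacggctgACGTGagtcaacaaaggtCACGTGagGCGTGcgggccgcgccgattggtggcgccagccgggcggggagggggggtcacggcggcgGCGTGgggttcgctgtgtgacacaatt
KDM5C (chrX:53225208-53225457, minus strand): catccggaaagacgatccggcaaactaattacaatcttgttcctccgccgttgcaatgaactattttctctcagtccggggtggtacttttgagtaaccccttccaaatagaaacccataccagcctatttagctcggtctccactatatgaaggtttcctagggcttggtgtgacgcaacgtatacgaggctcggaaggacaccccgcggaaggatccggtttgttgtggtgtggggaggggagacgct
The core letters occurred in 43.2% of all 35116 RefSeq start regions of this length. Among the members they occurred in 9 of 12 start regions and in at least 1 start region of 8 of 10 genes, KDM3B and KDM5C being without them. KDM5A, nearly level with GSK-J4, and KDM5B, 2-fold higher at 48 h, each hold 1 occurrence and are not shown. The regions shown therefore do not stand for all members. Of these, KDM3A and KDM6B hold 1 occurrence each, KDM4B 3, KDM6A 4 and KDM5C 0, and KDM6A was nearly level with GSK-J4. The 2 regions of KDM3A overlap and share 1 occurrence, and the second region of KDM6B, not shown, holds 0. The E-box CACGTG, found in 6.34% of all start regions, occurred in those of KDM4B, KDM4C and KDM6A. GCGGGAAA or GCGCGAAA, the letters of an E2F site, occurred in 1.8% of all start regions and in 0 of the members' 12. These are matches of letters in a fixed window, and binding was not measured.

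KDM6B itself was examined first in the siRNA experiment, since it checks the labels. KDM6B, at chr17:7737535-7758114 on the plus strand of GRCh37, stood at 6.47 and 8.76 CPM in the 2 siCtrl libraries. The libraries labelled siKDM6B held 8.99 (N1), 7.11 (N2) and 8.26 CPM (N33). The groups overlapped, and the log2 fold change was 0.09 ± 0.30 (95% confidence interval −0.63 to 0.81, adjusted p = 0.945). A fall of KDM6B transcript was therefore not seen in the libraries labelled siKDM6B, and the lower end of the interval corresponds to 0.648 of the siCtrl level. Gene-level counts do not measure the protein, and the position of the siRNA targets within the transcript was not examined. The study itself reports depletion of KDM6B by siRNAs in BE2C cells, with western blots, which were not examined here.

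The other 9 demethylases all had fold changes above 0 in the libraries labelled siKDM6B, but none passed the test. N1, N2 and N33 were tested as 1 group, so differences between these siRNAs counted as spread. KDM4A, which demethylates H3K9 and H3K36, was at 53.1 and 54.4 CPM with siCtrl. It was at 77.7, 73 and 96.1 CPM with N1, N2 and N33, all above both controls. Its log2 fold change was 0.61 ± 0.22 (adjusted p = 0.523). KDM4A exons overlap those of other annotated genes, KDM4A-AS1 among them, and the largest overlap with a single gene is 2086 bases. Its reads are therefore less certain than those of the other members. KDM6A, the paralog of KDM6B, was at 39.4 and 38.3 CPM with siCtrl and at 51.2, 55.3 and 43.6 CPM with N1, N2 and N33 (log2 fold change 0.37 ± 0.22, adjusted p = 0.644).

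KDM5B, an H3K4 demethylase, depended on 1 siRNA. It was at 111 and 111 CPM with siCtrl and at 184, 122 and 400 CPM with N1, N2 and N33, so that N33 was 3.6 times the siCtrl mean and N2 1.1 times. Its log2 fold change of 1.08 ± 0.50 (adjusted p = 0.56) became 0.47 without the N33 library. KDM3A went the other way with N33, at 23.9 CPM against 26.3 and 28.6 CPM with siCtrl, while N1 and N2 gave 32.2 and 41.8 CPM. Over the 10 members, N1, N2 and N33 gave median log2 ratios to siCtrl of 0.24, 0.35 and 0.48. Reads on no gene also differed, at 30 and 29.3% of reads with N1 and N2, 24.2% with N33 and 26.4% in both siCtrl libraries; the part of this in the members' levels was not tested.

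Of the 10 members, 5 did not overlap between groups and were higher in the libraries labelled siKDM6B: KDM6A, KDM5B, KDM5C, KDM4A and KDM4C. Over all genes tested, 16.3% were higher without overlap. At the adjusted threshold 0 of 10 members and 0 of 17472 genes (0%) were called by edgeR, where 1615 genes had an unadjusted p under 0.05. Since differences between the siRNAs counted as spread, this does not show that no single siRNA changed a gene. Of the members, KDM4A alone had an unadjusted p under 0.05. DESeq2 called 164 genes and limma-voom 0, none of them a member. The median log2 fold change was 0.32 over the members and 0.04 over all genes.

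**Figure D1:**
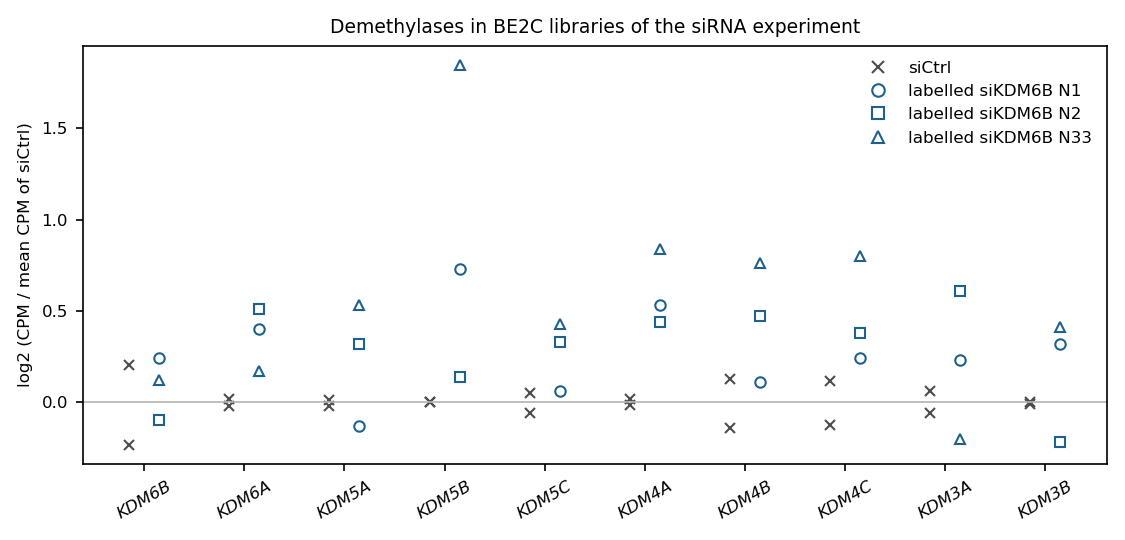
The log2 ratio of each library's CPM to the mean of the siCtrl libraries is plotted for the 10 demethylases in BE2C cells, with crosses for the 2 siCtrl libraries and blue symbols for the libraries labelled siKDM6B. KDM6B does not separate by group, all 3 symbols of KDM4A lie above its crosses, and the N33 library stands at 1.85 for KDM5B.

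With GSK-J4 most demethylase transcripts rose in BE2C cells. At 24 h 6 of 10 members were higher and 0 lower, against 27.3% of all 17734 tested genes called higher and 55.3% called in either direction. At 48 h 8 members were higher (37.1% of all genes) and 1 lower (34.4%), in all 9 of 10 where 71.5% of all genes were called. Over the members the median log2 fold change came to 0.45 after 24 h and 0.65 after 48 h, against 0.01 and 0.05 over all genes. With so large a share of genes called, the size of each change is given below rather than the call alone. KDM3A and KDM6B were called and at least 2-fold higher at 24 h (9.67% of all genes were changed at least 2-fold in either direction), and KDM3A, KDM6B, KDM4B and KDM5B at 48 h (20.9%).

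KDM6B, a main target of the inhibitor that cells form from GSK-J4, was at 7.42 and 8.16 CPM at 0 h. It was at 16.1 and 16.6 CPM at 24 h and at 23.7 and 22.8 CPM at 48 h. No level of one time overlapped with another. It was thus 1.07 ± 0.08 higher on the log2 scale at 24 h (2.09-fold, adjusted p = 3.8e-16) and 1.58 ± 0.07 at 48 h (2.99-fold, adjusted p = 6.8e-24).

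KDM6A, which carries the same activity, did not move alongside. It was at 38.5 and 42.2 CPM at 0 h, 38.1 and 39.5 CPM at 24 h, and 42.8 and 44.8 CPM at 48 h. The groups overlapped at 24 h (log2 fold change −0.06 ± 0.05, adjusted p = 0.342). At 48 h the libraries were just above those of 0 h (0.12 ± 0.05, adjusted p = 0.0261), and this call ended without the 0 h library of replicate 1 (0.05) or the 48 h library of replicate 2 (0.08), and in 4 of 10 other settings, DESeq2 among them (0.09). Per kilobase of exon the ratio of KDM6A to KDM6B was 1.38 in both 0 h libraries, 0.631 and 0.635 at 24 h, and 0.481 and 0.524 at 48 h. The order of the paralogs rests on the length used: with the longest transcript of each gene in place of all exons, the mean ratios were 2.87, 1.32 and 1.05. The longest protein-coding transcript holds 6094 bases for KDM6A and 6728 for KDM6B, and no ratio was computed with these. In CPM KDM6A stayed above KDM6B at each time, at 43.8 against 23.2 on average at 48 h.

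Among the H3K9 demethylases, KDM3A changed more than any other member. KDM3A, at chr2:86667770-86719839 on the plus strand of GRCh37, was at 27.3 and 26.3 CPM at 0 h. It was at 110 and 121 CPM at 24 h and at 236 and 238 CPM at 48 h, 4.31-fold and 8.83-fold above 0 h (log2 fold changes 2.11 ± 0.04 and 3.14 ± 0.04, adjusted p = 9.2e-37 and 3.5e-45). Only 2.58% of tested genes had a higher log2 fold change at 24 h and 2.42% at 48 h. Per kilobase of exon KDM3A rose from 2.02 ± 0.0522 to 17.8 ± 0.0709 CPM (n = 2), from the 7th to the 2nd place among the members (8th to 2nd by the longest transcript). The exons of KDM3A hold 13299 bases and its longest protein-coding transcript 4928, so these places rest on the length used. In CPM KDM3A was above its paralog KDM3B at 48 h. By all exons and by the longest transcript KDM3B stayed at the highest level per kilobase of the 10 genes. KDM3B went the other way: 228 and 232 CPM at 0 h, 221 and 219 CPM at 24 h, and 202 and 204 CPM at 48 h. Its log2 fold change was −0.18 ± 0.03 at 48 h (adjusted p = 5.8e-07), while the difference at 24 h did not pass (−0.06 ± 0.03, adjusted p = 0.0692).

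The 3 KDM4 genes all rose. KDM4B went from 40 and 38.1 CPM at 0 h to 73.5 and 80.3 CPM at 24 h and 97.2 and 96.2 CPM at 48 h, 1.97-fold and 2.47-fold (log2 fold changes 0.98 ± 0.04 and 1.31 ± 0.04, adjusted p = 7.4e-24 and 7.6e-30). KDM4C, expressed at a low level, went from 7.01 and 7.06 CPM to 10.1 and 10.3 CPM and then to 11.2 and 13.2 CPM (0.53 ± 0.10 at 24 h and 0.79 ± 0.09 at 48 h, adjusted p = 4.7e-06 and 1.6e-10). KDM4A differed from both in its course. It rose from 56.2 and 55.4 CPM to 88.6 and 86.1 CPM at 24 h and was lower again at 78.2 and 81 CPM at 48 h (48 h against 24 h −0.14 ± 0.04, adjusted p = 0.00108), though with upper-quartile scaling this fall was −0.07 and did not pass.

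Of the KDM5 genes, KDM5B was the one with a large change. It was at 98.6 and 103 CPM at 0 h, 129 and 130 CPM at 24 h and 195 and 209 CPM at 48 h, a log2 fold change of 0.36 ± 0.04 at 24 h (adjusted p = 2.9e-12) and a 2-fold rise at 48 h (adjusted p = 6.2e-29). KDM5A was at 160 and 160 CPM at 0 h, 155 and 154 CPM at 24 h and 180 and 181 CPM at 48 h, where it was called higher (0.18 ± 0.03, adjusted p = 1.5e-06). KDM5C lay between 151 and 158 CPM in all 6 libraries (log2 fold change at 48 h −0.03 ± 0.03, 95% confidence interval −0.09 to 0.03, adjusted p = 0.37). With upper-quartile scaling its log2 fold change at 48 h was 0.08 and was called.

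Between 24 h and 48 h 9 of 10 members differed, 7 higher and 2 lower, where 53.9% of all genes were called, 25.9% higher and 28% lower. KDM3A rose by a further 1.04 ± 0.03 on the log2 scale (adjusted p = 4.2e-29), KDM5B by 0.64 ± 0.03 (adjusted p = 1.6e-21) and KDM6B by 0.51 ± 0.06 (adjusted p = 5.8e-10). KDM4A and KDM3B were the 2 that fell, neither of them called with upper-quartile scaling (−0.07 and −0.05), and KDM5C did not pass. The call of KDM4C ended without the 48 h library of replicate 2 (0.13), as did that of KDM6A (0.14).

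**Figure D2:**
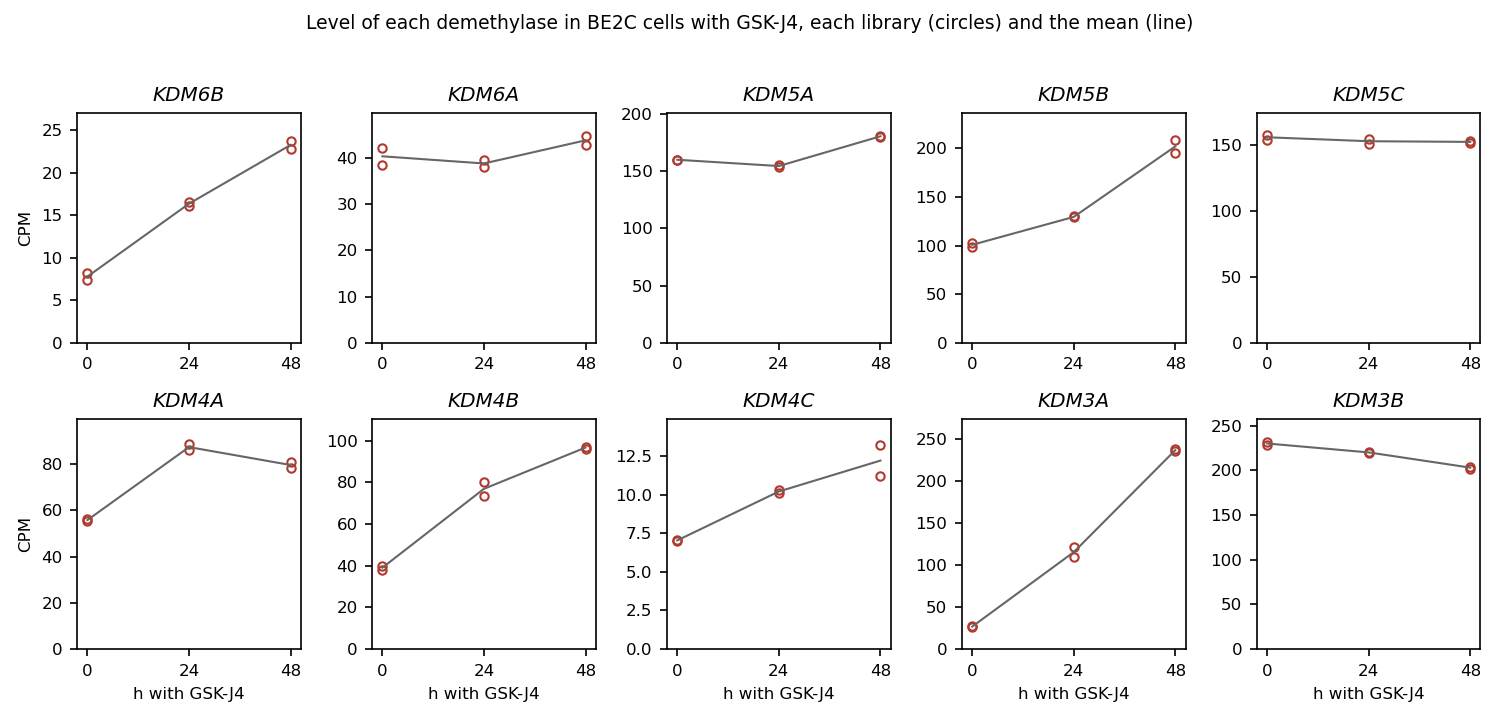
Each panel shows the CPM of 1 demethylase in BE2C cells against hours with GSK-J4 on axes that start at 0, with a circle for each of the 2 libraries of a time and a line through the means. KDM3A climbs from 26.8 to 237 CPM and KDM6B from 7.79 to 23.2 CPM, KDM4A peaks at 24 h, and KDM6A, KDM5A, KDM5C and KDM3B stay nearly level.

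Of the other 13 JmjC genes listed, 5 were higher at 48 h and 6 lower, where 37.1 and 34.4% of all genes were, with a median log2 fold change of −0.02. KDM7A, which acts on H3K9 and H3K27, rose by 0.64 ± 0.04 (adjusted p = 1.0e-18), and RIOX2, a ribosomal oxygenase, fell by 0.85 ± 0.04 on the log2 scale (adjusted p = 3.3e-22). RIOX2 is listed in the BE2C files under its older symbol MINA. The 2 demethylases of the other chemical class were lower at 48 h. KDM1A, which uses flavin rather than 2-oxoglutarate, went from 351 ± 1.66 to 223 ± 6.98 CPM (log2 fold change −0.65 ± 0.03, adjusted p = 1.5e-24). Of the 6 genes of the H3K27 methyltransferase complexes, 5 were lower at 48 h and 0 higher, among them EED (−0.62 ± 0.05, adjusted p = 1.9e-15) and the catalytic subunit EZH2 (−0.43 ± 0.03, adjusted p = 7.1e-16). Of the 9 genes for partners of KDM6A in its complex with the H3K4 methyltransferases, 2 were higher at 48 h (KMT2C and KMT2D) and 4 lower.

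All 12 HIF target genes listed, with KDM3A and KDM4B not among them, were higher at 24 h and at 48 h, with median log2 fold changes of 1.73 and 2.96. PDK1 rose from 10.4 ± 0.0143 to 115 ± 1.26 CPM at 48 h (log2 fold change 3.46 ± 0.05, adjusted p = 2.9e-44). NDRG1, a stress-responsive gene, rose from 2.64 ± 0.647 to 184 ± 11.2 CPM (6.12 ± 0.08, adjusted p = 1.4e-45). The list was chosen with earlier results of these data known. The 5 adrenergic markers all fell at 48 h, with a median log2 fold change of −0.53, and the epithelial marker EPCAM rose from 0.612 to 2.95 CPM. The part of these shifts in the members' changes was not tested, and in bulk RNA fewer cells of a type and less RNA per cell cannot be told apart.

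The genes most like KDM6B across the 11 BE2C libraries were NDRG1 (Pearson r of log2 CPM 0.989, Spearman rho 0.955), the glycolytic enzyme GPI (0.98 and 0.864) and PPFIA4 (0.977 and 0.809), among 13115 genes with a mean of at least 1 CPM. Of the members KDM3A came nearest (0.967 and 0.764), with 8 genes more alike, followed by KDM4B (0.936 and 0.718). KDM6A gave 0.0282 and 0.255. These libraries fall into the GSK-J4 times and the siRNA groups, so the values describe that shared course.

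**Figure D3:**
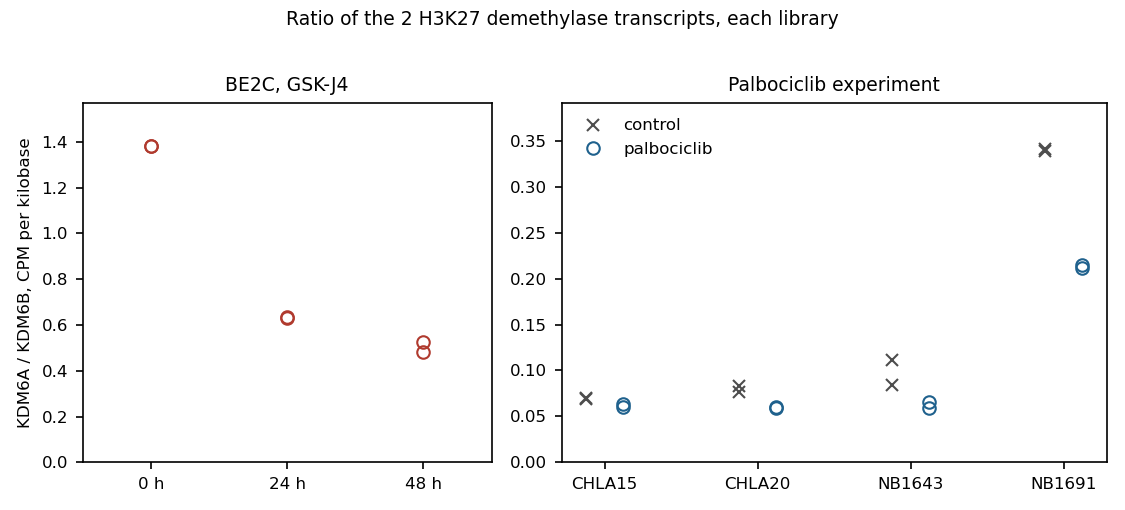
The ratio of KDM6A to KDM6B in CPM per kilobase of exon is plotted for each library, at left in BE2C cells by time with GSK-J4 and at right in 4 lines without (crosses) and with (circles) palbociclib. By all exons the ratio falls from 1.38 to 0.503 on average in BE2C cells and is at or below 0.341 in every library of the palbociclib experiment. Its height, though not its direction of change, rests on the length used for each gene.

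In the palbociclib experiment the demethylases were first compared between the lines in control cells, where all 10 differed (F test over the lines, 91.2% of 22133 genes called). KDM6B was at 106 and 98.3 CPM in CHLA15, 90.3 and 80.7 CPM in CHLA20, 62 and 50.2 CPM in NB1643, and 40.1 and 40.4 CPM in NB1691. Every step of that order passed the test. From CHLA15 to CHLA20 the log2 difference was −0.26 ± 0.08 (adjusted p = 0.0374), a call lost without either CHLA15 library or without the CHLA20 library of replicate 2. From CHLA20 to NB1643 it was −0.61 ± 0.08 (adjusted p = 1.8e-06) and from NB1643 to NB1691 −0.48 ± 0.08 (adjusted p = 2.1e-05).

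KDM6A had another order. It was at 27.4 and 25.8 CPM in CHLA15, 25.9 and 25.3 CPM in CHLA20, 19.6 and 20.9 CPM in NB1643, and 51.3 and 51.3 CPM in NB1691. NB1691, with the lowest KDM6B, thus had the highest KDM6A, 2.54-fold above NB1643 (log2 difference 1.35 ± 0.06, adjusted p = 4.6e-14). CHLA15 and CHLA20 overlapped (−0.06 ± 0.06, adjusted p = 0.6). The ratio of KDM6A to KDM6B per kilobase of exon was 0.0694 ± 0.000867 in CHLA15, 0.0799 ± 0.00488 in CHLA20, 0.0975 ± 0.019 in NB1643 and 0.34 ± 0.0017 in NB1691 (n = 2 each). These values rest on the length used: in NB1691 KDM6A had more CPM than KDM6B, at 51.3 against 40.2 on average.

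KDM4C and KDM5A were also highest in NB1691. KDM4C was at 38.9 and 39.3 CPM there, 2.78-fold above the 14.4 and 13.7 CPM of CHLA15 (log2 difference 1.47 ± 0.06, adjusted p = 7.0e-14), with 15.7 and 15.1 CPM in CHLA20 and 23 and 21.1 CPM in NB1643 in between. KDM5A was at 119 and 121 CPM in NB1691 and 46.3 and 41.5 CPM in NB1643 (1.44 ± 0.07, adjusted p = 6.2e-13), with 85.8 and 84.4 CPM in CHLA15 and 82.7 and 68.9 CPM in CHLA20. Its difference from CHLA15 (0.49 ± 0.07, adjusted p = 3.2e-06) was 0.08 with library totals in place of TMM and then did not pass (adjusted p = 0.333). KDM5C was lowest in NB1643, at 124 and 112 CPM against 207 to 234 CPM in the other lines, and KDM4B likewise, at 56.4 and 45.2 CPM against 77 to 103 CPM. KDM5B, at 125 to 156 CPM, had the weakest test over the lines (adjusted p = 0.0181), which did not pass without either NB1691 library (0.0978 and 0.0717). KDM4A spanned 82.3 to 113 CPM, KDM3A 64.2 to 99.4 CPM and KDM3B 109 to 147 CPM.

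By pairs of lines, 1 of 10 members differed between CHLA20 and CHLA15 (12.4% of all genes). Between NB1643 and CHLA15 8 differed (64.6%), between NB1643 and CHLA20 8 (64.5%), between NB1691 and CHLA15 10 (78%), between NB1691 and CHLA20 8 (77.5%) and between NB1691 and NB1643 9 (80.7%). The count between CHLA20 and CHLA15 was 0 without either CHLA15 library or without the CHLA20 library of replicate 2, and 4 without the CHLA20 library of replicate 1. Contrasts with NB1691 depended on scaling: with library totals in place of TMM the median of all genes moved by −0.40 against CHLA15, and KDM5C and KDM3A then turned from higher to lower, with log2 differences of −0.27 and −0.13, while KDM5A was no longer called. The call of KDM5C in that pair (0.14 ± 0.05) was also lost when any 1 of its 4 libraries was left out, and that of KDM3A (0.28 ± 0.07) without the CHLA15 library of replicate 2.

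Per kilobase of exon KDM4A stood highest in CHLA15, CHLA20 and NB1643, at 20.4 ± 0.0668, 20.4 ± 1.84 and 16.9 ± 0.834 CPM (n = 2 each). KDM5C stood highest in NB1691, at 18.9 ± 0.118 CPM. In NB1643 KDM4A and KDM3B (16.6 ± 1.38) were within their spread of each other. KDM6A was lowest in all 4 lines by all exons, between 0.729 and 1.85 CPM. Its exons hold 27742 bases and its longest protein-coding transcript 6094, so this place rests on the length used. Before scaling by length KDM4C was lower, at 14.1 against 26.6 CPM in CHLA15 and 15.4 against 25.6 CPM in CHLA20. Levels over protein-coding transcripts were not ranked. KDM6B was 4th of 10 in CHLA15, CHLA20 and NB1643 and 6th in NB1691. By the longest transcript KDM5C stood highest in CHLA15, CHLA20 and NB1691, and KDM6B was 6th, 6th, 7th and 9th in that order of lines. In BE2C cells at 0 h it was 9th of 10 at 1.05 ± 0.0705 CPM per kilobase, against 5.44 ± 0.0277 to 13.8 ± 0.739 in the other lines. That gap was not tested, since BE2C libraries were counted in separate tables, the sample labels give them another medium where the study's methods give the same one for BE2C, CHLA15, CHLA20 and NB1691, and reads on no gene took 22.9 to 25.9% of the GSK-J4 libraries against 16 to 20.6% of the palbociclib libraries.

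**Figure D4:**
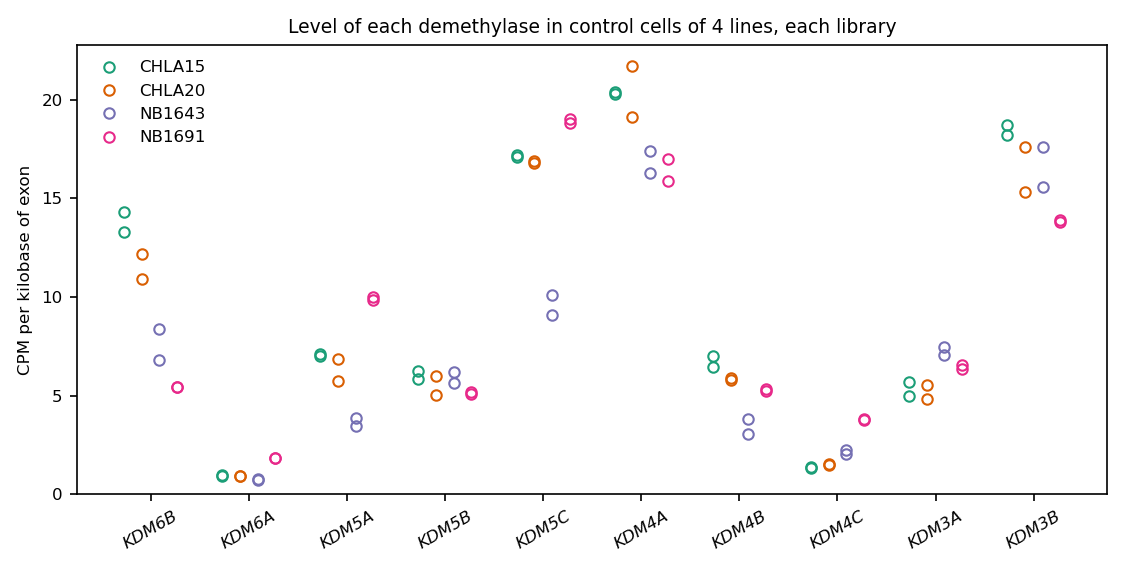
The CPM per kilobase of exon of each demethylase is plotted for the control libraries of CHLA15, CHLA20, NB1643 and NB1691, with 1 circle per library. KDM6B steps down from 13.8 in CHLA15 to 5.44 in NB1691 on average, while KDM6A and KDM4C are highest in NB1691.

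With palbociclib the transcripts of KDM6B, KDM5B and KDM4B were above control in every line, and no change reached 2-fold. In CHLA15 2 of 10 members were called, both higher (29.8% of all genes called and 14.2% higher). In CHLA20 there were 4, of which 3 higher and 1 lower (29.6%, 13.7% and 15.9%). In NB1643 all 5 called members were higher (39.9% and 20.3%). In NB1691 7 were called, 4 higher and 3 lower (32.8%, 17.4% and 15.5%). The median log2 fold change of the members was 0.04 in CHLA15, 0.09 in CHLA20, 0.20 in NB1643 and 0.09 in NB1691, against at most 0.02 over all genes.

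KDM6B was at 116 and 119 CPM in CHLA15 with palbociclib, 117 and 118 CPM in CHLA20, 96.6 and 88.7 CPM in NB1643 and 56.4 and 55.5 CPM in NB1691. In each line both treated libraries lay above both controls. The log2 fold change was 0.46 ± 0.08 in CHLA20 (adjusted p = 0.000148), 0.72 ± 0.08 in NB1643 (adjusted p = 6.1e-07) and 0.48 ± 0.08 in NB1691 (adjusted p = 0.000144). In CHLA15 it was 0.20 ± 0.08 and did not pass (adjusted p = 0.0625), but it passed in 5 of 9 other settings, DESeq2 among them (adjusted p = 0.0357), and in none of the 4 with a CHLA15 library left out. The 3 genes most like KDM6B over these 16 libraries were MARK4 (Pearson r 0.987, Spearman rho 0.965), RP11-57H14.4 (0.986 and 0.959) and TMEM63C (0.982 and 0.962), among 13962 genes. The libraries form clusters by line.

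KDM5B went from 154 and 140 CPM to 270 and 278 CPM in NB1643, the largest change of a member with palbociclib (log2 fold change 0.90 ± 0.07, adjusted p = 1.0e-08). In CHLA20 it went from 150 and 125 CPM to 193 and 192 CPM (0.49 ± 0.07, adjusted p = 3.5e-05). In NB1691 it went from 127 and 129 CPM to 152 and 156 CPM (0.27 ± 0.07, adjusted p = 0.00671). In CHLA15 it went from 156 and 146 CPM to 165 and 180 CPM (0.19 ± 0.07, adjusted p = 0.0494), a call that ended without either control library or without the palbociclib library of replicate 2.

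KDM4B was called higher in all 4 lines, with log2 fold changes of 0.31 ± 0.07 in CHLA15 (adjusted p = 0.00347), 0.37 ± 0.07 in CHLA20 (adjusted p = 0.000775), 0.61 ± 0.08 in NB1643 (adjusted p = 3.1e-06) and 0.24 ± 0.07 in NB1691 (adjusted p = 0.0208). Its CPM in NB1643 were 56.4 and 45.2 in control cells and 80.6 and 74.8 with palbociclib. The call in CHLA15 ended without the control library of replicate 2 (0.25).

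KDM4A rose most in NB1643, from 90.4 and 84.3 CPM to 147 and 148 CPM (log2 fold change 0.75 ± 0.06, adjusted p = 1.7e-08). In NB1691 the change was 0.18 ± 0.06 (adjusted p = 0.0308). In CHLA20 its groups overlapped, at 113 and 99.2 CPM in control cells and 113 and 105 CPM with palbociclib. KDM5C was called in NB1643 alone, from 124 and 112 CPM to 143 and 144 CPM (0.28 ± 0.05, adjusted p = 0.00019). KDM3A, the member that changed most with GSK-J4, was called in none of the lines, with log2 fold changes between −0.06 and 0.14. KDM4C was not called either (0.04 to 0.15).

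Lower levels with palbociclib were small. KDM5A was called lower in CHLA20, from 82.7 and 68.9 CPM to 64.6 and 64.1 CPM (−0.24 ± 0.07, adjusted p = 0.0154), but not without the control library of replicate 1 (−0.12) or either palbociclib library. In NB1691 KDM6A went from 51.3 and 51.3 CPM to 44.7 and 44.9 CPM (−0.20 ± 0.05, adjusted p = 0.0094), KDM5A from 119 and 121 CPM to 103 and 107 CPM (−0.19 ± 0.07, adjusted p = 0.044) and KDM3B from 109 and 110 CPM to 96.6 and 95.3 CPM (−0.19 ± 0.07, adjusted p = 0.0471). Each of these calls in NB1691, and that of KDM4B, ended when any 1 of the 4 NB1691 libraries was left out. That of KDM4A ended in all cases but the control library of replicate 2, and that of KDM5B without the control library of replicate 1, while KDM6B was called in all 4 cases. With library totals in place of TMM, KDM5B (0.19), KDM4A (0.10) and KDM4B (0.15) were not called in NB1691, and KDM5A (−0.15) and KDM3B (−0.14) were not with upper-quartile scaling. The number of members called in NB1691 was then 1 without the control library of replicate 1, 3 without that of replicate 2, and 2 without either palbociclib library.

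The effect of palbociclib differed between lines for 6 of 10 members, KDM6B, KDM6A, KDM5B, KDM5C, KDM4A and KDM4B, where 38% of all genes passed the F test for an interaction of line and treatment. The adjusted p was 1.2e-05 for KDM4A, 8.1e-05 for KDM5B and 0.00439 for KDM5C, and these calls stood whichever of the 16 libraries was left out. That of KDM6B (0.00754) was lost without the CHLA15 control library of replicate 1 (0.057), that of KDM6A (0.0229) in 11 of the 16 cases and that of KDM4B (0.0407) in 14; without that CHLA15 control library 3 members were called. Since NB1643 and NB1691 received another dose than CHLA15 and CHLA20, line and dose cannot be told apart except within these pairs. MYCN status also differs among the lines and was not separated from line.

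**Figure D5:**
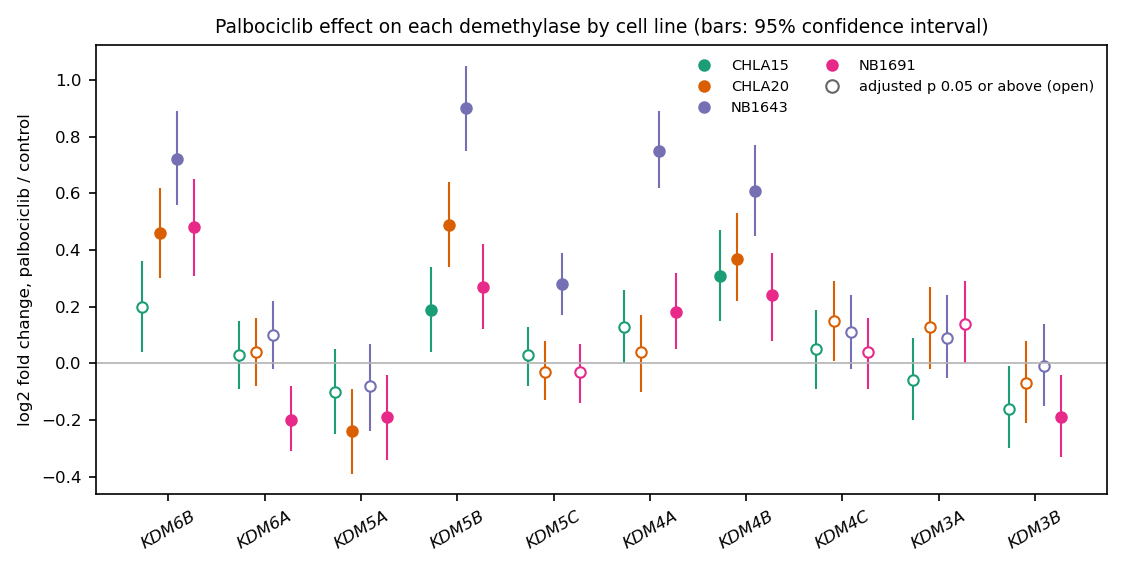
The log2 fold change of palbociclib over control is plotted for each demethylase and line with its 95% confidence interval, filled where the adjusted p was under 0.05. KDM6B, KDM5B and KDM4B lie above 0 in all 4 lines, NB1643 gives the highest points up to 0.90, and KDM6A, KDM5A and KDM3B lie at or below −0.19 in NB1691.

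The genes of other lists gave a contrast in the same cells. The 6 H3K27 methyltransferase genes included 4 called lower in CHLA15 and 5 in each other line, with 0 higher. EZH2 went from 61.3 ± 2.29 to 21.7 ± 0.0864 CPM in NB1643 (adjusted p = 1.6e-13) and from 33.1 ± 0.378 to 11.8 ± 0.88 CPM in NB1691 (adjusted p = 8.0e-13). The 13 other JmjC genes included 2, 4, 5 and 2 called higher and 0, 1, 0 and 3 called lower in CHLA15, CHLA20, NB1643 and NB1691. JARID2, a JmjC protein without demethylase activity, rose by 0.36 ± 0.05 in NB1643 (adjusted p = 3.0e-05). The 12 HIF targets were mixed, with 2, 3, 2 and 5 higher and 4, 5, 6 and 1 lower in that order of lines. Of all genes, 14.2, 13.7, 20.3 and 17.4% were called higher in CHLA15, CHLA20, NB1643 and NB1691. In either direction 29.8, 29.6, 39.9 and 32.8% were called.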

How the data were processed

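RNA sequencing of 27 libraries in 38 files was analysed. The authors aligned reads to GRCh37 (STAR 2.5.3a and CASAVA are named in the submitters' processing notes) and assigned them to GENCODE genes with htseq-count; the deposited values are raw counts per gene symbol. The 22 BE2C files came in pairs of the same labelled replicate or siRNA and were summed to 11 libraries: counts of paired files differed by a chi-square per degree of freedom of 1.48 to 1.65, against 1.89 to 4.33 between replicates of these groups. Summary lines that name no gene, 16 to 30% of reads, stayed out of library sizes and tests.

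Genes were kept by filterByExpr and tested in each experiment apart with edgeR 4.0.16 (TMM, glmQLFit, glmQLFTest; R 4.3.3) on library counts, with Benjamini-Hochberg adjustment over 17472 genes (siRNA), 17734 (GSK-J4) and 22133 (palbociclib), and a threshold of 0.05; all groups of an experiment shared 1 estimate of the spread. Alternatives were DESeq2 1.42.0, limma-voom (limma 3.58.1), other scalings and filters, the replicate number as a block, single files as samples, fewer or more groups in the fit, and each library left out. The scripts were tested on simulated data. Levels per kilobase used all exons of a gene in GENCODE v44 lifted to GRCh37, whose coordinates are given for genes; start regions are RefSeq's on GRCh38.p14, matched by symbol for 10 of 10 members. Figures and summaries used Python 3.11.15, pandas 2.3.3, numpy 2.4.6 and matplotlib 3.10.9.

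The members and the gene lists (other JmjC genes, flavin-dependent demethylases, methyltransferases of H3K4, H3K9, H3K27 and H3K36, KDM6A partners, HIF targets, adrenergic and other cell markers) were chosen with earlier results of these data known. The text names the members whatever their test, of each list in each comparison at most the 3 genes with the largest rise and the 3 with the largest fall among those called, and the 3 genes most correlated with KDM6B. Y-linked genes were left out. Some adrenergic markers are not reported here, and the list's values were computed without them. Replicate numbers paired no samples: the correlation of same-numbered deviations was 0.0037 to 0.0183 between GSK-J4 times. With 3 counts per library as the limit of detection, 0.0323 to 0.0829 CPM could be told from 0, for counting error only; all members lay far above it.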

Additional observations from a re-analysis of the deposited data

Results flagged for a closer look

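The effect of palbociclib differed between lines, by edgeR's interaction test, for 6 demethylases. Between the line with the highest and the line with the lowest log2 fold change, the difference was 0.52 for KDM6B (adjusted p = 0.00754), 0.30 for KDM6A (adjusted p = 0.0229), 0.71 for KDM5B (adjusted p = 8.1e-05), 0.31 for KDM5C (adjusted p = 0.00439), 0.72 for KDM4A (adjusted p = 1.2e-05) and 0.37 for KDM4B (adjusted p = 0.0407). NB1643 was the highest line for each of the 6, and the lowest line varied.

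The change from 0 h with GSK-J4 differed between 48 h and 24 h for 9 demethylases. The log2 difference was 1.04 for KDM3A, 0.64 for KDM5B, 0.51 for KDM6B, 0.33 for KDM4B, 0.25 for KDM4C, 0.22 for KDM5A and 0.17 for KDM6A, with adjusted p between 4.2e-29 and 0.00722. It was −0.14 for KDM4A (adjusted p = 0.00108) and −0.12 for KDM3B (adjusted p = 0.000611). Time in culture and time with the compound cannot be told apart in these libraries.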

How the results depend on the processing

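The rises of KDM6B, KDM3A, KDM4A, KDM4B and KDM5B with GSK-J4 at 24 h and 48 h, and those of KDM6B, KDM5B and KDM4B with palbociclib in CHLA20 and NB1643, kept direction and call under each alternative tool, scaling and filter and without any 1 library. The number of members called changed by over 1.5 times as follows. For the libraries labelled siKDM6B it was 2 with each file as a sample (KDM4A and KDM6A), where paired files are not separate replicates. It was 1 with the siRNA and GSK-J4 libraries in 1 fit (KDM4A), where both experiments shared 1 estimate of the spread. For CHLA15 with palbociclib it was 1 with limma-voom, upper-quartile scaling or library totals, 5 with only the compared groups, and 0 to 2 with each library left out. For NB1691 with palbociclib it was 4 with library totals and 1 to 3 with each library left out. For untreated CHLA20 against CHLA15 it was 0 with median-of-ratios scaling, library totals or only the compared groups, 2 with at least 1 count in all libraries, and 0 to 4 with each library left out. For the interaction it was 3 to 6 with each library left out. The causes were not tested.

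With the longest transcript in place of all exons, the ratio of KDM6A to KDM6B was 2.9 in siCtrl, 3.47 in siKDM6B, 2.87, 1.32 and 1.05 at 0 h, 24 h and 48 h of GSK-J4, and, without and with palbociclib, 0.145 and 0.129 in CHLA15, 0.167 and 0.125 in CHLA20, 0.203 and 0.13 in NB1643 and 0.708 and 0.445 in NB1691. The longest transcript of KDM6A holds 12117 bases and its longest protein-coding transcript 6094, with which no ratio was computed.

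Signs turned for small differences. With upper-quartile scaling KDM5C with GSK-J4 was 0.02 at 24 h, 0.08 at 48 h and 0.06 between these times, KDM3B in NB1643 with palbociclib 0.05, KDM5C in NB1691 0.01, and KDM5B between untreated NB1643 and CHLA15 0.03. With library totals KDM5C with GSK-J4 was 0.01 at 48 h and 0.02 between times, KDM6A and KDM5C in CHLA15 with palbociclib −0.00132 and −0.01, KDM4C in NB1691 −0.05, and KDM5C and KDM3A in untreated NB1691 −0.27 and −0.13 against CHLA15 and −0.24 and −0.09 against CHLA20. With at least 10 counts in every library KDM5C was 0.02 at 48 h and 0.03 between times, and with each file as a sample 0.01 between times. KDM3B in NB1643 with palbociclib was 0.02 with DESeq2 and with median-of-ratios scaling and 0.000684 with at least 1 count, and between untreated NB1643 and CHLA20 −0.01 with at least 1 count. KDM5B between untreated NB1643 and CHLA15 was 0.00219 with only the compared groups.

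With each library left out, log2 values crossed 0 for KDM6B in siKDM6B (−0.12 to 0.32), KDM6A at 24 h of GSK-J4 (−0.12 to 0.01), KDM5C between 24 h and 48 h (−0.03 to 0.01), KDM6A and KDM3A in CHLA15 with palbociclib (−0.01 to 0.07 and −0.15 to 0.04), KDM4A and KDM3B in CHLA20 (−0.07 to 0.11 and −0.18 to 0.02), and KDM5A and KDM3B in NB1643 (−0.18 to 0.00364 and −0.11 to 0.09). Between untreated lines they crossed 0 for KDM4A and KDM3A from CHLA15 to CHLA20 (−0.08 to 0.10 and −0.14 to 0.06), KDM5B from CHLA15 to NB1643 (−0.09 to 0.07), KDM5B and KDM3B from CHLA20 to NB1643 (−0.00163 to 0.26 and −0.07 to 0.14) and KDM4A from NB1643 to NB1691 (−0.19 to 0.02).

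Of all genes called, 48.1% were higher at 48 h against 24 h, and 58.1% with upper-quartile scaling. In NB1691 with palbociclib 52.9% were higher, and 35.9% with library totals. In untreated NB1691 54.2, 54.7 and 55.3% were higher than in CHLA15, CHLA20 and NB1643, and 40.6, 40.9 and 42.4% with library totals, which also moved 84 of 130 mean levels of the members by over 1 SD. Of all genes, 2736 differed between untreated CHLA20 and CHLA15, and 1285 with only these groups. In the libraries labelled siKDM6B 2354 genes were called with each file as a sample, 690 in 1 fit with GSK-J4 and 84 with at least 1 count, against 0.

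The replicate numbers did not pair the samples. With the replicate number as a block 7 members were called at 24 h, 9 at 48 h and 9 between these times, and 3, 4, 5 and 7 with palbociclib in CHLA15, CHLA20, NB1643 and NB1691, with 6 in the interaction and 10 over untreated lines; between pairs of untreated lines 1, 8, 10, 8, 9 and 9 were called. KDM3B at 24 h (edgeR adjusted p = 0.0496), KDM6B in CHLA15 (0.0366; 0.00614 to 0.17 over the 9 settings other than libraries left out) and KDM4B between NB1691 and CHLA20 (0.0481) were gained. No paired analysis was possible for the siRNA libraries because the siKDM6B libraries share 1 number. All members lay far above the limit of detection in every library.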

Other observations

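The genes of enzymes that place the marks removed by the members gave the following values in BE2C cells with GSK-J4, where 37.1% of all genes were called higher and 34.4% lower at 48 h. Of 6 H3K4 methyltransferase genes, 3 were higher at 48 h and 1 lower: KMT2A went from 163 ± 12.9 to 256 ± 3.54 CPM (log2 fold change 0.65 ± 0.03, edgeR adjusted p = 1.5e-21) and SETD1A from 22.9 ± 0.158 to 19 ± 0.969 CPM (−0.26 ± 0.06, adjusted p = 0.000167), with n = 2 libraries at each time. Of 7 H3K9 methyltransferase genes, 2 were higher and 4 lower. EHMT2 went from 93.2 ± 4.91 to 57.4 ± 1.89 CPM (−0.70 ± 0.04, adjusted p = 8.8e-21), and SETDB2 from 12.4 ± 0.282 to 18.4 ± 0.174 CPM (0.57 ± 0.07, adjusted p = 6.3e-10). Of 5 H3K36 methyltransferase genes, 3 were higher and 2 lower, with ASH1L at 150 ± 9.18 and 208 ± 1.14 CPM (0.48 ± 0.03, adjusted p = 1.6e-17) and NSD2 at 268 ± 7.38 and 187 ± 1.29 CPM (−0.52 ± 0.03, adjusted p = 2.1e-20).

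With palbociclib 3 of the 7 H3K9 and 3 of the 5 H3K36 methyltransferase genes were lower in NB1691 and 0 higher, where 15.5% of all genes were called lower and 17.4% higher. SUV39H1 went from 21.1 ± 0.344 to 11 ± 0.466 CPM (−0.93 ± 0.08, adjusted p = 2.1e-08) and NSD2 from 149 ± 3.21 to 73.3 ± 0.19 CPM (−1.02 ± 0.06, adjusted p = 6.2e-11). In the libraries labelled siKDM6B no gene of these lists was called, as for 0% of all genes tested.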
